A study of Mus musculus with 32 samples.

Results

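The change of neurite enrichment that accompanied loss of Mettl3 was measured in silenced, untreated hippocampal neurons. For each gene, the neurite over soma ratio in Mettl3 KO neurons was compared with the ratio in WT neurons. The comparison drew on 8 of the 16 RNA-seq libraries of the series, which holds 32 samples in all: soma and neurites of WT and of Mettl3 KO neurons, with 2 culture inserts per genotype. It covered the 22942 genes, of 55573 in the count table, with a mean count of at least 10 over these 8 libraries. WT neurons came from C57BL/6 mice and KO neurons from Mettl3Flox/Flox mice, and both kinds were transduced at DIV 7 with an AAV that expresses Cre from the neuronal hSyn promoter. All cultures were silenced with 1 µM TTX and 50 µM D-AP5 for 16 h and harvested at DIV 15 without KCl. Replicate inserts came from separate litters, and each culture was pooled from a single litter. Genotype, strain and litter therefore cannot be told apart, the p-values measure the spread between 2 inserts per genotype, and Cre under hSyn leaves glial Mettl3 outside its target. The soma fraction, taken from the top of the porous membrane, also holds neurites that did not grow through the pores.

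Mettl3 is the catalytic subunit of the methyltransferase complex that writes N6-methyladenosine (m6A) on nascent mRNA, mostly within the coding sequence near the stop codon and in the 3′UTR. Reader proteins of the YTH family bind the modified base and are known to act on mRNA decay, translation and placement. Many neuronal mRNAs are carried into dendrites and axons in ribonucleoprotein granules, where they can be translated next to synapses, and the neurite over soma ratio is a common measure of this placement.

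Mettl3 itself (ENSMUSG00000022160, GRCm38 chromosome 14 from 52294841 to 52305128) was the check of the labels. In soma it measured 17.3 and 16.7 CPM (counts scaled to a common library size by the trimmed mean of M-values, TMM) in WT and 9.23 and 11.3 in KO. In neurites it measured 12.4 and 12.8 CPM in WT and 4.04 and 6.99 in KO. Every KO library lay below every WT library of the same compartment, by 0.72 on the log2 scale in soma (edgeR quasi-likelihood F-test, unadjusted p = 0.0420, adjusted p = 0.342) and by 1.20 in neurites (unadjusted p = 0.00465, adjusted p = 0.207). The counts span all exons of the gene, so reads from exons outside the deletion are included. In bulk RNA, fewer cells of a type and less RNA per cell cannot be told apart.

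The libraries held 34969090 to 71394235 counts. The soma library of KO insert 2 stood apart from the rest, with a Pearson r of log2 levels across genes of at most 0.881 with any other library, against 0.996 between the WT soma libraries. The log2 ratio between the replicate libraries had an SD over 14733 genes of 0.183 in WT soma, 0.361 in WT neurites, 1.09 in KO soma and 0.538 in KO neurites. The neurite over soma ratio is therefore given per insert, and results that rest on KO insert 2 are given without it as well.

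The first question was how many genes changed their neurite enrichment. A gene was called when the neurite over soma ratio differed at least 1.5-fold between the genotypes at an unadjusted p of at most 0.05, the rule the study used for such changes, in an edgeR quasi-likelihood F-test with 1 term per insert. Neurite enrichment was higher in KO for 185 genes (0.806% of the genes tested) and lower for 162 genes (0.706%). No gene passed at an adjusted p (0 of 22942, smallest adjusted p 0.998), and DESeq2 and limma voom also gave 0 there, with 686 and 343 genes at an unadjusted p of at most 0.05. The 347 genes at an unadjusted p of at most 0.05 were 1.51% of those tested, below the 5% that this threshold passes where nothing changes, so the number of calls does not exceed what no change would give. The 0 at an adjusted p does not show that enrichment was unchanged. In each of the 347 called genes both KO inserts lay on one side of both WT inserts. Among all genes this separation was seen for 16.3% with KO higher and 16.4% with KO lower. The call rests on the same values, so the separation in called genes is no further evidence.

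The number of calls rested on single inserts. Without KO insert 2 the same test called 1427 genes higher and 1169 lower, with 200 genes at an adjusted p. Without KO insert 1 it called 3380 higher and 2378 lower, with 4020 genes at an adjusted p. In both fits the lone KO insert was assumed to vary as the WT inserts do. Without WT insert 1 the counts were 94 and 59, and without WT insert 2 they were 19 and 25. Of the 185 genes called higher, 141 were called without KO insert 2 and 164 without KO insert 1, but 22 without WT insert 1 and 5 without WT insert 2. Of the 162 called lower, the counts were 104, 103, 26 and 16.

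The genes called higher were short and often pseudogenes. Their median exon length was 1105 bases, against 3188 over all genes tested, and 69 of the 185 (37.3%) were pseudogenes, 64 of them processed pseudogenes, against 15.4% pseudogenes among all genes tested. The genes called lower had a median exon length of 3016 bases and held 10 pseudogenes of 162 (6.17%). Protein-coding genes numbered 97 among the genes called higher (52.4%) and 106 among those called lower (65.4%), against 67.5% of all genes tested. Within the compartments, KO was compared with WT in a fit of group means without insert terms, another design than that of the enrichment calls. It called 1557 genes higher in KO soma (6.79%) and 1371 lower (5.98%). In KO neurites it called 962 higher (4.19%) and 1477 lower (6.44%), with 27 at an adjusted p in each compartment (0.118%). The absolute KO minus WT difference was larger in soma than in neurites for 133 of the 185 genes called higher. The same held for 70 of the 162 called lower. The share over all genes tested was not computed, so these counts are not read as a trait of called genes. Replicate libraries also differed more in KO soma than in KO neurites (SD 1.09 against 0.538). Read pairs that map to several places were counted by the authors, so a processed pseudogene can hold reads of its parent gene and its value is uncertain.

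DART-seq marks m6A by a deaminase fused to a reader domain, which converts the cytosine next to the modified adenosine. The deposited list holds 18147 distinct sites in WT neurons. The authors' editing averages pool untreated and KCl-treated libraries, so they are not values of untreated neurons alone. Of the genes called higher 38 had a site (20.5%), and of those called lower 12 (7.41%), against 24.3% of all genes tested. At a mean count of 100 or more these shares were 33.6% and 18.8%, against 37.5% of the genes not called, and the genes called lower had a median mean count of 52.4, against 327 over all genes tested. The called genes described below that hold a site were 6, and for each the site with the highest deposited C-to-U fraction is shown, 10 bases to each side, because these are the listed m6A positions in mRNAs whose neurite enrichment was called. Sequences were read from GRCm38, 5′ to 3′ on the strand of the gene. Capitals mark the AAC or GAC that holds the candidate m6A before the edited C. The authors kept only sites in such a motif, so its presence at all 18147 sites was fixed by their filter.
Sv2b: taactgatAACgctctgttga
Spp1: ttcatgcaAACaccgttgtaa
Gad2: acaggcatAACtttcctttct
Cpeb2: gtgctgaaGACactgacgtgc
Egr2: ttgcctgtGACtattgtggcc
Ppp1r14b: agggtcctGACtcagacggcc
The sites of Sv2b (chr7:75115664-75115684, minus strand), Spp1 (chr5:104440782-104440802, plus strand), Gad2 (chr2:22692331-22692351, plus strand) and Cpeb2 (chr5:43286002-43286022, plus strand) lie in 3′UTRs. Those of Egr2 (chr10:67540759-67540779, plus strand) and Ppp1r14b (chr19:6977050-6977070, plus strand) lie in coding sequence.

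The deposited C-to-U fraction at these sites was 0.201 in Sv2b, 0.103 in Spp1, 0.0911 in Gad2, 0.0563 in Cpeb2, 0.0393 in Egr2 and 0.0349 in Ppp1r14b, each an average by the authors over libraries, so no error can be given and the depth is unknown.

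Ppp1r14b, which encodes an inhibitor of protein phosphatase 1, had one of the 3 smallest p among the rises. Its log2 neurite over soma ratio was 1.26 and 1.45 in the WT inserts and 2.73 and 2.61 in the KO inserts. The inserts of each genotype lay close together, and the difference was 1.32 (SE 0.31, unadjusted p = 0.00733 by edgeR). In CPM, Ppp1r14b (GRCm38 chromosome 19 from 6974968 to 6977324) measured 6.68 and 5.69 in WT soma and 16.1 and 15.6 in WT neurites. It measured 7.21 and 2.87 in KO soma and 48.0 and 17.7 in KO neurites, so its neurite level was higher in both KO inserts than in either WT insert.

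Bc1, a short brain-specific noncoding RNA that is transported into dendrites and represses translation there, also rose. Its ratio was 0.21 and −0.31 in the WT inserts and 1.45 and 1.94 in the KO inserts, a difference of 1.77 (SE 0.41, unadjusted p = 0.00686 by edgeR). The rise of the ratio came with lower levels in both compartments. Bc1 (GRCm38 chromosome 7 from 144914470 to 144914637) measured 10.7 and 15.3 CPM in WT soma and 1.71 and 1.89 in KO soma, and 12.4 in each WT neurite library against 4.74 and 7.33 in KO neurites. With trends in exon length and GC content removed from each library, an alternative chosen after the data were seen, the difference was 0.98 (unadjusted p = 0.135).

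The other rise of that rank was Gm8520, a processed pseudogene on GRCm38 chromosome 9 from 96813467 to 96814334, with ratios of 1.5 and 0.76 in WT and 2.89 and 2.65 in KO (difference 1.65, SE 0.38). Among the largest rises, Gm47681, Gm15536 and Gm8599 were processed pseudogenes as well, with differences of 2.77, 2.50 and 2.39. In these 3 the ratio in KO insert 2 was between 2.85 and 3.94 and that in KO insert 1 between 0.70 and 1.84. Their soma level was lowest in KO insert 2, at 0.926, 1.25 and 0.272 CPM, against 2.80 to 14.4 CPM in WT soma. Without KO insert 2 the differences were 1.74, 1.27 and 1.57, each still past the rule.

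Tmem212 and Tdo2 were also among the largest rises. Tmem212, a transmembrane protein gene on GRCm38 chromosome 3 from 27866066 to 27896368, had ratios of −1.85 and −3.71 in WT and −0.82 and 0.24 in KO. Tdo2, which encodes the tryptophan-degrading enzyme tryptophan 2,3-dioxygenase (GRCm38 chromosome 3 from 81957090 to 81976202), had ratios of −0.61 and −0.33 in WT and 2.67 and 1.11 in KO. Of these 5 rises, Tdo2 alone had a ratio that was higher in KO insert 1 than in KO insert 2. Its soma level was 3.45 and 3.21 CPM in WT and 0.157 and 0.780 in KO, while its neurite level was 2.25 and 2.54 in WT and 1.21 and 1.73 in KO.

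Among the falls, the smallest p belonged to Gm45640, a gene of the annotation class TEC, which awaits experimental evidence, on GRCm38 chromosome 8 from 90876581 to 90878476. Its ratio was 1.42 and 1.54 in WT and −0.29 and −0.26 in KO, a difference of −1.77 (SE 0.38, unadjusted p = 0.00545 by edgeR). The neurite level carried the difference, at 8.66 and 10.9 CPM in WT against 1.19 and 3.25 in KO.

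Gabrg3, a gamma subunit of the GABA-A receptor (GRCm38 chromosome 7 from 56716465 to 57387188), had ratios of −0.12 and 0.18 in WT and −1.37 and −1.52 in KO. The difference was −1.48 (SE 0.35, unadjusted p = 0.00776 by edgeR). Its soma level was higher in KO, 12.3 and 11.6 CPM against 8.65 and 8.43 in WT, and its neurite level lower, 4.74 and 4.0 against 7.95 and 9.53. The compartments thus moved in opposite directions, and the inserts of the 2 genotypes did not overlap in either.

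Apobec1, a cytidine deaminase that edits mRNA (GRCm38 chromosome 6 from 122577792 to 122602444), had ratios of 2.00 and 2.24 in WT and 0.32 and 0.68 in KO. The difference of −1.64 (SE 0.41, unadjusted p = 0.00934 by edgeR) lay in soma, where Apobec1 measured 1.61 and 1.08 CPM in WT and 4.99 and 3.85 in KO. In neurites it measured 6.52 and 5.24 CPM in WT and 6.24 and 6.18 in KO, which overlap.

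The 6 largest falls comprised Bgn, Spp1, Ddhd1, Hs3st5, Lama4 and Gm45640, and several encode matrix proteins. Bgn, the matrix proteoglycan biglycan (GRCm38 chromosome X from 73483602 to 73495933), had ratios of 1.18 and 2.94 in WT and −0.81 and −0.36 in KO, a difference of −2.67. Spp1, the secreted glycoprotein osteopontin (GRCm38 chromosome 5 from 104435118 to 104441050), had ratios of 1.58 and 3.02 in WT and −0.99 and 0.69 in KO. Lama4, the laminin alpha 4 chain (GRCm38 chromosome 10 from 38965515 to 39110188), had ratios of 1.29 and 1.83 in WT and −0.59 and 0.13 in KO. For Bgn and Spp1 the highest neurite level was in WT insert 2, at 9.78 and 25.5 CPM.

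Ddhd1 and Hs3st5 encode a phospholipase and a heparan sulfate sulfotransferase. Ddhd1 (GRCm38 chromosome 14 from 45588467 to 45658143) fell by 1.89, with ratios of −0.24 and 1.22 in WT and −0.65 and −2.13 in KO. Without KO insert 2, whose soma library held 105 CPM against 23.3 to 26.7 in the other 3 soma libraries, its difference was −1.10 (unadjusted p = 0.0658 by edgeR), and with length and GC trends removed it was −1.72 (unadjusted p = 0.0800). Hs3st5 (GRCm38 chromosome 10 from 36506814 to 36834397) fell by 1.84, with ratios of 0.93 and 0.58 in WT and −1.68 and −0.47 in KO.

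**Figure D1:**
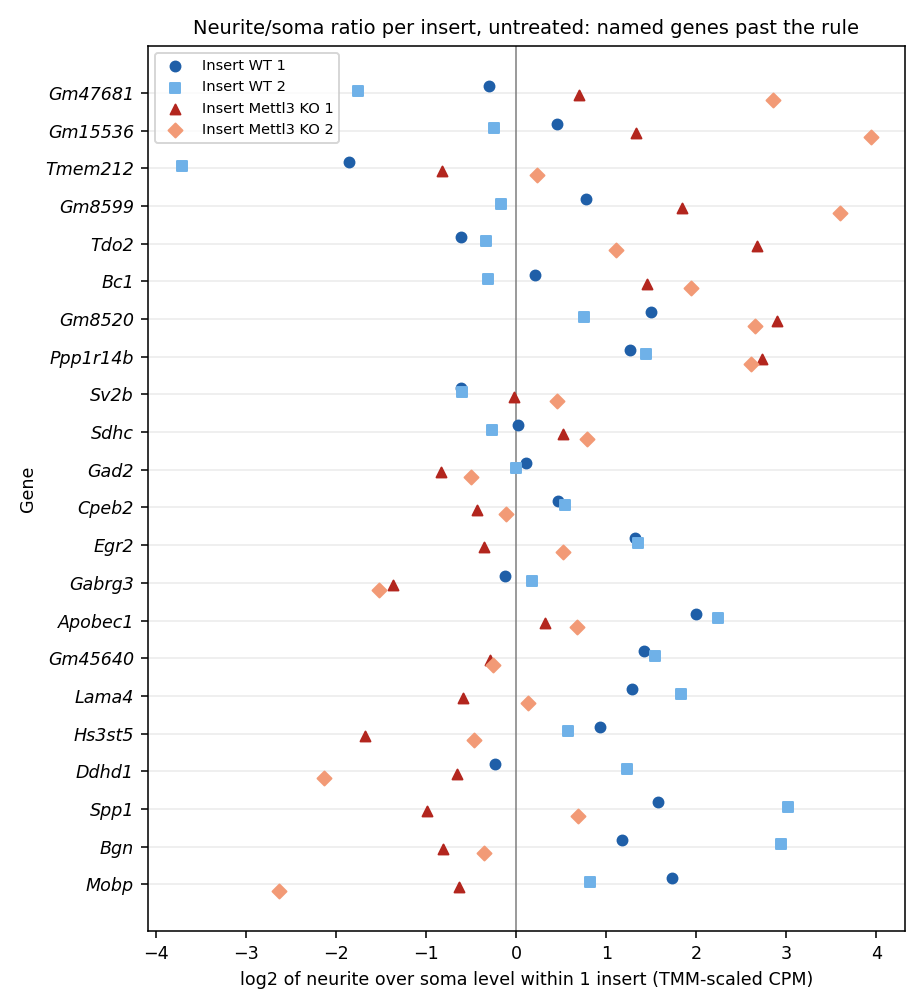
The 22 named genes past the rule, with the log2 neurite over soma ratio on the horizontal axis and 1 marker per insert (blue for WT, red and orange for KO). KO insert 2 lay furthest from zero in the pseudogenes at the top, while the KO inserts of Gm45640 (−0.29 and −0.26) nearly coincided.

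The mRNAs that the study followed for this comparison were examined next. They were chosen by the study on these samples, so the values below are not independent evidence of a direction. By single-molecule FISH in separately cultured neurons, the study reported lower percentages of Map2, Shank1 and Camk2a mRNA in KO neurites. It reported no change for Actb. Among the mRNAs followed, Actb, Bdnf and Homer1 were the study's controls without Mettl3-dependent localization, and the values below pool them with the rest. None of the 11 described here was called (0 higher and 0 lower), the median difference was −0.76, against −0.03 over all genes tested, and 9 of the 11 differences were below zero, against 52.4% of all genes. In 7 of the 11 both KO inserts lay below both WT inserts, against 16.4% of all genes tested. In 1 they lay above, against 16.3% of all genes tested. The median without KO insert 2 was −0.44 with 3 called higher and 3 lower, and without KO insert 1 it was −0.56 with 4 called lower.

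Map2, which encodes a dendritic microtubule-associated protein, came closest to the rule. Map2 (ENSMUSG00000015222, GRCm38 chromosome 1 from 66175273 to 66442583, 16 DART-seq sites) measured 462 and 478 CPM in WT soma and 1426 and 1908 in WT neurites. In KO it measured 373 and 277 CPM in soma and 534 and 658 in neurites. The ratio was 1.63 and 2.00 in WT and 0.52 and 1.25 in KO, so it was lower in both KO inserts and still above zero in both. The difference was −0.93 (SE 0.37, unadjusted p = 0.0522 by edgeR), and with length and GC trends removed it was −0.75 (unadjusted p = 0.0405), past the rule.

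Camk2a encodes the alpha subunit of CaMKII, a kinase of the postsynaptic density whose mRNA is a classical dendritic mRNA. Camk2a (ENSMUSG00000024617, GRCm38 chromosome 18 from 60925618 to 60988152, 6 DART-seq sites) measured 1492 and 1720 CPM in WT soma and 6323 and 7969 in WT neurites, against 1179 and 1348 in KO soma and 3655 and 5180 in KO neurites. Its ratio was 2.08 and 2.21 in WT and 1.63 and 1.94 in KO. The inserts did not overlap, but the difference of −0.36 (SE 0.30, unadjusted p = 0.276 by edgeR) did not pass the test.

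In Kcnq5, Grik1, Scnn1a and Map1b both KO inserts also lay below both WT inserts. Kcnq5, a potassium channel subunit, had ratios of 0.92 and 0.92 in WT and −0.37 and 0.57 in KO. Grik1, a kainate receptor subunit, had ratios of −0.29 and −0.54 in WT and −1.52 and −0.84 in KO. Scnn1a, a subunit of the epithelial sodium channel, had ratios of 0.93 and 0.62 in WT and 0.10 and −0.22 in KO. Map1b, a microtubule-associated protein with 18 DART-seq sites, had ratios of 0.74 and 1.22 in WT and 0.49 and 0.12 in KO. Their differences of −0.82, −0.76, −0.84 and −0.68 had unadjusted p of 0.146, 0.0803, 0.0993 and 0.102 by edgeR.

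In Shank1, Homer1 and Homer2 the KO inserts lay far apart. Shank1, a scaffold of the postsynaptic density, had ratios of 1.90 and 2.38 in WT, 3.33 in KO insert 1 and −0.65 in KO insert 2. Its soma level was 50.8 and 42.1 CPM in WT, 49.8 in KO insert 1 and 198 in KO insert 2. Without KO insert 2 its difference was 1.24 (unadjusted p = 0.000617 by edgeR), and without KO insert 1 it was −2.79 (unadjusted p = 1.1e-06), so its direction depended on the insert.

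Homer1, a postsynaptic scaffold, had ratios of 0.32 and 0.45 in WT, 0.95 in KO insert 1 and −0.53 in KO insert 2. For Homer2, another member of that family, KO insert 1 had 1.64, just below WT insert 1 with 1.65, and KO insert 2 had 0.05. Its difference of −1.10 was the lowest of the 11 (unadjusted p = 0.127 by edgeR). Bdnf, a secreted neurotrophin, was the gene with both KO inserts higher, at 0.50 and 0.18 against −0.20 and −0.09 in WT (difference 0.49, unadjusted p = 0.194 by edgeR). Actb, beta-actin, had ratios of −0.01 and −0.10 in WT and −0.14 and 0.48 in KO. Kcnq5, Grik1, Scnn1a and Homer2 had 2, 0, 0 and 0 DART-seq sites, and Shank1, Homer1, Bdnf and Actb had 7, 5, 7 and 1.

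**Figure D2:**
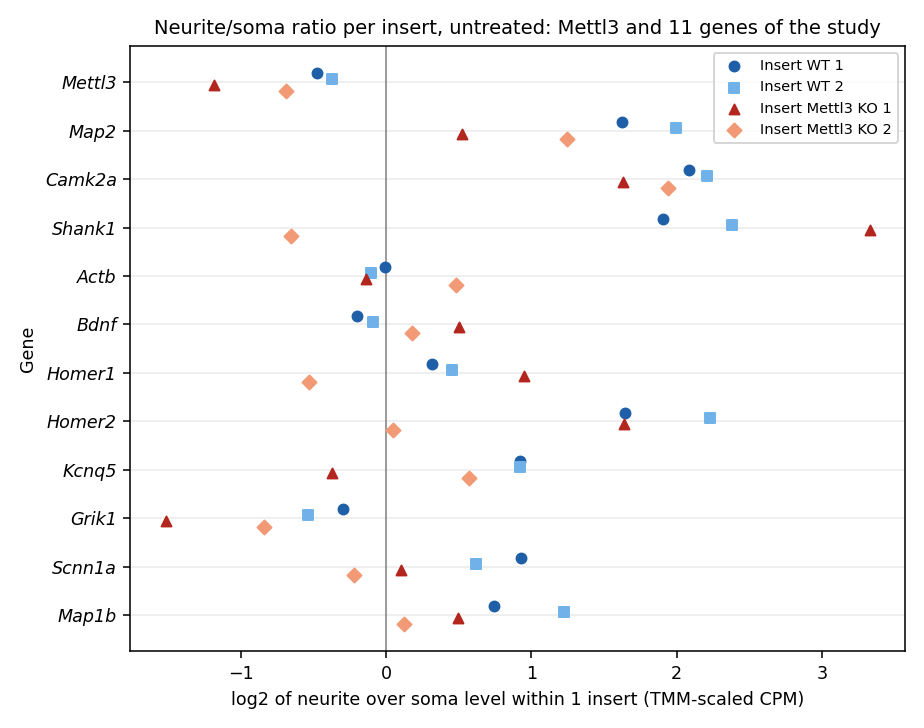
Mettl3 and 11 genes followed by the study, with the log2 neurite over soma ratio on the horizontal axis and 1 marker per insert. Both KO inserts lay below both WT inserts for Map2, Camk2a, Kcnq5, Grik1, Scnn1a and Map1b, while Shank1 and Homer1 had KO inserts on opposite sides of WT.

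Gene groups were then compared by their counts and medians. Some of these lists hold genes that the study followed, so they are not separate evidence from the values above. Camk2a and Homer2 are among the postsynaptic scaffolds, Grik1 among the glutamate receptors, and Map2 and Map1b among the microtubule and neurofilament genes. Among 30 postsynaptic scaffold genes tested, 0 were called, 27 had a difference below zero and the median was −0.28. Both KO inserts lay below both WT inserts in 12 of these genes, against 16.4% of all genes tested. The medians of the ratio over this list were 0.41 and 0.67 in WT and 0.39 and 0.17 in KO, which lie close together in WT insert 1 and KO insert 1. Camk2b, the beta subunit of CaMKII, had a difference of −0.07, which was −0.34 without KO insert 1 and 0.26 without KO insert 2. Among 25 glutamate receptor genes, 0 were called, 10 were below zero and the median was 0.08, which was 0.22 without KO insert 1 and 0.01 without KO insert 2. The AMPA receptor subunits Gria1 and Gria2 had differences of −0.10 and 0.46, and that of Gria1 was 0.22 without KO insert 1 and −0.37 without KO insert 2.

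Of 34 presynaptic vesicle genes, 26 were below zero with a median of −0.14, and 1 was called, in the higher direction. This was Sv2b, a membrane glycoprotein of synaptic vesicles (GRCm38 chromosome 7 from 75114894 to 75309262), with ratios of −0.61 and −0.60 in WT and −0.02 and 0.45 in KO (difference 0.82, SE 0.30, unadjusted p = 0.0388 by edgeR). Its soma level was 143 and 166 CPM in WT and 70.5 and 62.2 in KO, and its neurite level 93.7 and 110 in WT and 69.6 and 84.9 in KO. Both compartments were lower in KO, and soma by more. The complexin gene Cplx2 had a difference of −0.13 and Vamp2, a SNARE protein of the vesicle, one of −0.67 that was −0.00138 without KO insert 2.

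Of 72 voltage-gated channel genes, 46 were below zero with a median of −0.15, and 0 were called. Without KO insert 1 the median was −0.02 and without KO insert 2 it was −0.14. Kcnab2, an auxiliary beta subunit of potassium channels, had ratios of 1.56 and 1.68 in WT and 1.16 and 1.27 in KO (difference −0.41, unadjusted p = 0.183 by edgeR). Cacnb3, a beta subunit of calcium channels, had ratios of 0.73 and 1.05 in WT and 1.10 and 0.26 in KO (difference −0.21, unadjusted p = 0.603), and its difference was −0.63 without KO insert 1 and 0.26 without KO insert 2.

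Microtubule and neurofilament genes had 0 calls among 30, with 23 below zero and a median of −0.16. Among 34 RNA-binding proteins of transport granules, 28 were below zero with a median of −0.24, which was −0.15 without KO insert 2. The call among them was Cpeb2, a cytoplasmic polyadenylation element binding protein (GRCm38 chromosome 5 from 43233170 to 43289724), with ratios of 0.47 and 0.55 in WT and −0.43 and −0.11 in KO (difference −0.78, SE 0.30, unadjusted p = 0.0492 by edgeR). Cpeb2 measured 21.1 and 20.6 CPM in WT soma, 29.2 and 30.1 in WT neurites, 16.9 and 15.3 in KO soma and 12.5 and 14.2 in KO neurites. It was higher in neurites than in soma in both WT inserts and lower in both KO inserts. With length and GC trends removed its difference was −0.69 (unadjusted p = 0.0539).

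Among 22 m6A writers, readers and erasers, 0 were called, 17 were below zero and the median was −0.13, which was −0.23 without KO insert 1 and −0.04 without KO insert 2. Mettl3 had a difference of −0.52 (SE 0.35, unadjusted p = 0.200 by edgeR), with ratios of −0.48 and −0.37 in WT and −1.18 and −0.69 in KO. Among 24 activity-induced genes, 18 were below zero with a median of −0.17, but without KO insert 2 the median was 0.07 with 10 below zero, and without KO insert 1 it was −0.34. Egr2, an immediate early transcription factor, was called lower (difference −1.27, SE 0.48, unadjusted p = 0.0449 by edgeR). Its ratio was 1.32 and 1.35 in WT and −0.36 and 0.51 in KO, at a low level of 1.49 to 6.76 CPM, and the call was lost without KO insert 1 (unadjusted p = 0.0808) and with length and GC trends removed (unadjusted p = 0.0572). Among 15 long noncoding RNAs commonly described as nuclear, 0 were called and the median was −0.17. The median of these RNAs was −0.63 without KO insert 2 and 0.41 without KO insert 1. Malat1, the most abundant of them, had ratios of −0.36 and −0.33 in WT, −1.79 in KO insert 1 and 1.98 in KO insert 2.

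The lists with the largest medians were the cytosolic ribosomal proteins and the nuclear-encoded subunits of the respiratory chain, with median exon lengths of 1770 and 1578 bases. Of 83 ribosomal protein genes, 5 were below zero and the median difference was 1.48, yet edgeR called 0, and of 82 respiratory chain genes the median was 1.43 and 1 was called. DESeq2 called 32 and 24 of these genes higher, and edgeR with all 16 RNA-seq libraries called 12 and 8. The median ratio of the ribosomal protein genes was 0.69 and 1.02 in WT, 1.09 in KO insert 1 and 3.54 in KO insert 2. The summed soma level of these genes was 12171 and 11085 CPM in WT, 14547 in KO insert 1 and 4032 in KO insert 2. Without KO insert 2 their median was 0.28 with 1 gene called higher, and without KO insert 1 it was 2.79 with 77 called higher.

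The respiratory chain genes had the same pattern over inserts. Their median ratio was 0.43 and 0.78 in WT, 0.71 in KO insert 1 and 3.19 in KO insert 2, and without KO insert 2 their median difference was 0.18. Cox6a1, a subunit of cytochrome c oxidase, measured 883 and 762 CPM in WT soma, 927 in KO soma 1 and 68.0 in KO soma 2. The longer mRNA of Atp5b, a subunit of ATP synthase, measured 1117 and 1140 CPM in WT soma and 1456 and 1964 in KO soma. The called gene was Sdhc, a subunit of succinate dehydrogenase (GRCm38 chromosome 1 from 171127165 to 171150603), with ratios of 0.02 and −0.27 in WT and 0.52 and 0.78 in KO (difference 0.78, SE 0.29, unadjusted p = 0.0406 by edgeR). For Sdhc the 2 KO inserts lay close together, and without KO insert 2 the difference was 0.70.

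**Figure D3:**
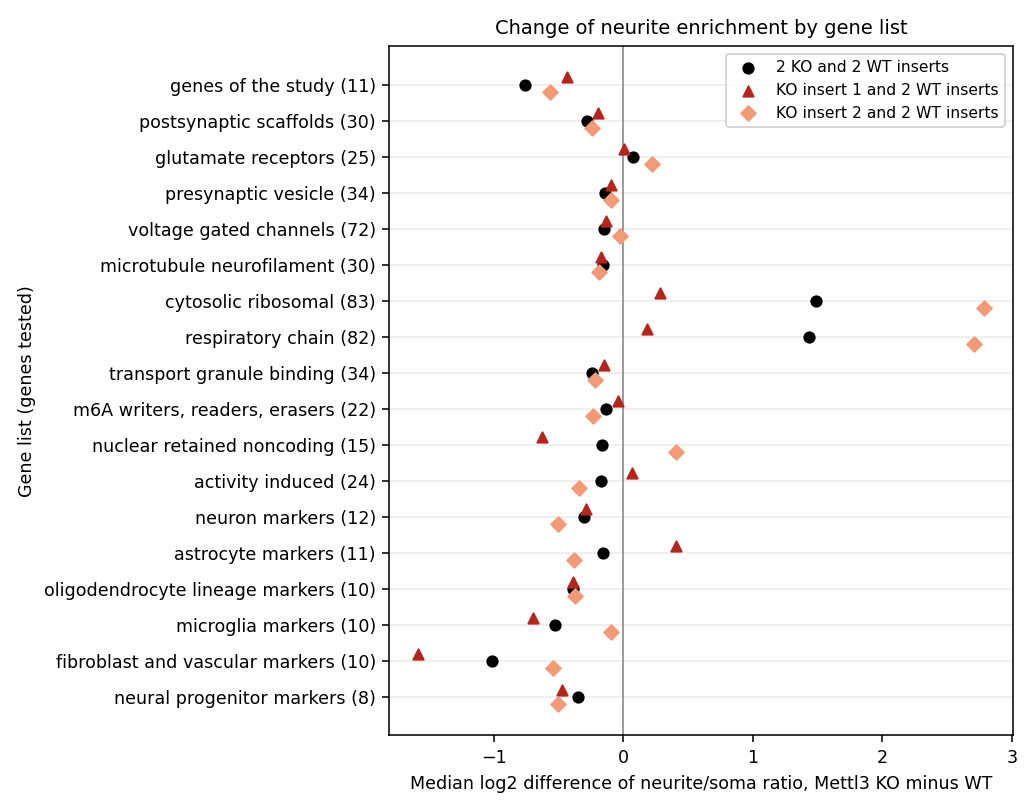
Median log2 difference of the neurite over soma ratio, KO minus WT, for each of 18 gene lists, with all inserts (black) and with KO insert 1 (red) or KO insert 2 (orange) as the only KO insert. The ribosomal and respiratory chain medians of 1.48 and 1.43 became 0.28 and 0.18 with KO insert 1 and 2.79 and 2.71 with KO insert 2, while the medians of postsynaptic scaffolds stayed between −0.28 and −0.19.

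Markers of the cell types in these cultures were compared in the same way. The summed level of 12 neuron markers was 4671 and 4854 CPM in WT soma and 4137 and 4821 in KO soma. In neurites the sum was 6102 and 7002 CPM in WT and 4220 and 4741 in KO. The list includes Map2, a gene that the study followed, which carried a large part of the lower sum in KO neurites. Map2 alone measured 1426 and 1908 CPM in WT neurites and 534 and 658 in KO neurites. Among these markers 11 were below zero (median −0.31), and Gad2, the GABA-synthesizing enzyme of inhibitory neurons (GRCm38 chromosome 2 from 22622205 to 22693874), was called lower. Gad2 measured 121 and 126 CPM in WT soma, 131 and 126 in WT neurites, 110 and 118 in KO soma and 61.6 and 83.3 in KO neurites. Its ratio was 0.11 and 0.00 in WT and −0.83 and −0.50 in KO (difference −0.72, SE 0.28, unadjusted p = 0.0484 by edgeR), and with length and GC trends removed the difference was −0.63 (unadjusted p = 0.0612).

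The summed level of 11 astrocyte markers was 1196 to 1219 CPM in WT soma and 2006 to 2626 in KO soma, and 2116 to 3243 in WT neurites and 3029 to 6965 in KO neurites, so the genotypes overlapped in neurites and not in soma. For the change of neurite enrichment their median was −0.16 with 0 called, and it was 0.41 without KO insert 2 and −0.38 without KO insert 1. Gfap, the intermediate filament of astrocytes, had a difference of −0.18, which was −0.72 without KO insert 1 and 0.41 without KO insert 2. Microglia markers summed to 18.3 to 45.1 CPM in WT libraries and 26.6 to 78.9 in KO libraries, oligodendrocyte lineage markers to 89.6 to 162 and 145 to 263, and neural progenitor markers to 112 to 204 and 153 to 296. Of these lists, the oligodendrocyte lineage had 1 call and the others 0. Sox10, Itgam, Tagln and Cldn5 lay below the count minimum and were not tested.

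Among 10 markers of fibroblasts and vascular cells tested, all 10 were below zero with a median of −1.01 and 0 called by edgeR, against 3 called lower by DESeq2. The median was −0.54 with 8 below zero without KO insert 1 and −1.59 without KO insert 2. Their summed level was 23.1 to 27.3 CPM in WT soma, 46.6 and 102 in the WT neurite libraries, 19.9 to 53.7 in KO soma and 26.6 to 38.6 in KO neurites. The matrix genes Bgn, Spp1 and Lama4 were highest in the neurite library of WT insert 2, as was Col1a1, a fibrillar collagen, at 50.1 CPM against 15.3 in WT insert 1. Mobp, a myelin protein called lower in the oligodendrocyte list, had a mean count of 12.6 and a level of 0.0575 to 0.563 CPM. The part of other cell types in the changes above was not tested.

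The second question was whether the change depended on the exon length of the gene. Over all genes tested, the median difference was 0.43 in the shortest quartile of exon length (up to 1532 bases), −0.11 in the second, −0.07 in the third and −0.09 in the longest (over 5578 bases). The same medians were 0.12, 0.07, 0.06 and −0.09 without KO insert 2, and without KO insert 1 they were 0.78, −0.15, −0.14 and −0.01, so the sign in the middle quartiles depended on the KO insert. Of the genes in the shortest quartile, 111 were called higher (1.93%) and 27 lower (0.471%), and in the longest 18 were called higher (0.314%) and 50 lower (0.872%). The median of the ratio in the longest quartile minus that in the shortest was −0.11 and −0.21 in WT inserts, −0.41 in KO insert 1 and −0.60 in KO insert 2. Both KO inserts thus had the steeper length dependence, by 0.34 on average (−0.50 ± 0.14 in KO and −0.16 ± 0.07 in WT, SD, n = 2 each). The exact two-sided permutation test over inserts gave p = 0.333, which is the smallest p that 2 against 2 inserts allow.

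The 2 KO inserts reached this gap in different ways. In the shortest decile of all genes (56 to 613 bases) the median ratio was 0.28 and 0.44 in WT, 0.52 in KO insert 1 and 1.67 in KO insert 2. In the longest decile (8595 bases or more) it was 0.00 in both WT inserts, −0.23 in KO insert 1 and 0.08 in KO insert 2. KO insert 1 stood lowest at long exon lengths and KO insert 2 highest at short ones. Of the 2298 genes in the shortest decile, 104 were protein-coding. Among protein-coding genes alone, quartiles were cut anew, the shortest reaching 2728 bases. The gap between the longest and the shortest was −0.05 and −0.06 in WT, −0.38 in KO insert 1 and −0.04 in KO insert 2. KO insert 2 lay close to the WT inserts in this gap but not at the shortest exon lengths. In protein-coding genes of up to 613 bases its median ratio was 2.46, against 0.16 and 0.37 in WT and 0.53 in KO insert 1. From 614 to 1195 bases it was 1.83, against 0.14 and 0.23 in WT and 0.38 in KO insert 1. Pseudogenes, with a median length of 615 bases, had a median difference of 0.45 against −0.06 in protein-coding genes.

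**Figure D4:**
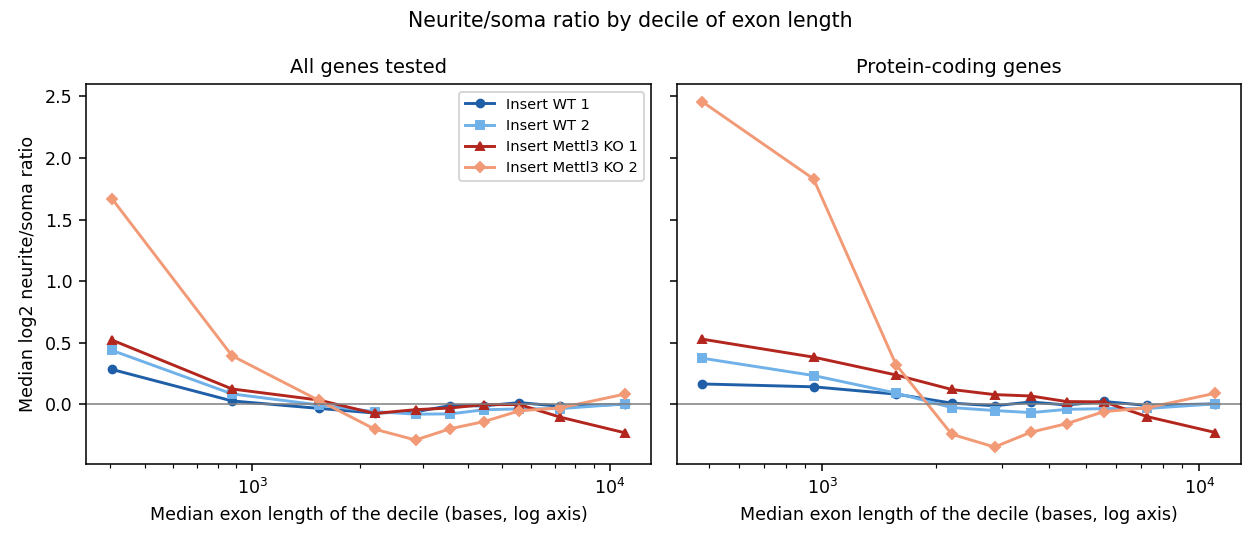
Median log2 neurite over soma ratio per insert in deciles of exon length (log axis), for all genes tested and for protein-coding genes. In the shortest decile KO insert 2 stood above the other 3 inserts, at 1.67 for all genes and 2.46 for 104 protein-coding genes. In the longest decile KO insert 1 was lowest, at −0.23 in both panels.

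Long 3′UTRs were examined because m6A is dense there. Quartiles of the longest annotated 3′UTR of protein-coding genes (GENCODE M21) had median differences of 0.12 for 3′UTRs of at most 578 bases and of −0.09, −0.08 and −0.09 for the longer quartiles. The protein-coding genes called higher had a median 3′UTR of 570 bases and those called lower one of 1138 bases, against 1322 in genes not called.

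The third question was whether genes with m6A changed more. In these data 5567 of the genes tested had at least 1 site. The median difference was −0.01 for 17375 genes with 0 sites, −0.04 for 3732 genes with 1 to 3, −0.11 for 1413 genes with 4 to 7 and −0.07 for 422 genes with 8 or more. With KO insert 2 left out these medians were −0.00, 0.12, 0.06 and −0.00, and without KO insert 1 they were 0.09, −0.11, −0.23 and −0.05. Among protein-coding genes alone, with all inserts, the medians were −0.05, −0.04, −0.11 and −0.07. Genes with 0 sites had a median mean count of 120.5, against 2421, 4697 and 7182 in the other classes. The authors' site calling set a minimum read depth. The share of genes called did not rise with the number of sites, at 0.846% higher and 0.863% lower with 0 sites, 0.777% and 0.214% with 1 to 3, 0.495% and 0.283% with 4 to 7, and 0.474% (2 genes) and 0% (0 genes) with 8 or more.

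Per insert, genes with 8 or more sites were more neurite-enriched than genes with none in both genotypes. The gap of the medians was 0.23 and 0.29 in WT and 0.29 and 0.23 in KO, that is 0.26 ± 0.05 in WT and 0.26 ± 0.04 in KO (SD, n = 2 each, exact permutation p = 1). Genes with 4 to 7 sites had gaps of 0.03 and 0.04 in WT, 0.17 in KO insert 1 and −0.19 in KO insert 2, so the KO inserts lay on opposite sides of WT. The same held for 1 to 3 sites, with 0.01 and −0.01 in WT and 0.15 and −0.11 in KO.

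**Figure D5:**
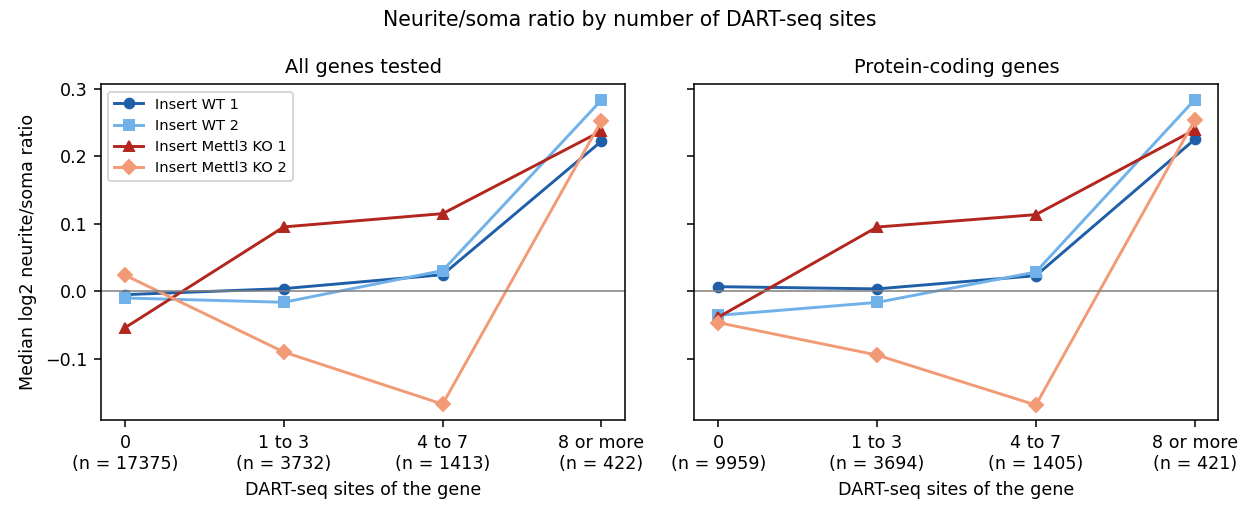
Median log2 neurite over soma ratio per insert for genes with 0, 1 to 3, 4 to 7 and 8 or more DART-seq sites, for all genes tested and for protein-coding genes. The 4 inserts met between 0.22 and 0.28 at 8 or more sites, and at 4 to 7 sites KO insert 1 lay above WT and KO insert 2 below.

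Within quartiles of exon length, genes with 4 or more sites were compared with genes without a site. In the longest quartile the gap was 0.09 and 0.15 in WT and 0.28 and 0.13 in KO, and in the third 0.10 and 0.15 in WT, 0.32 in KO insert 1 and −0.08 in KO insert 2. In the second quartile it was 0.11 and 0.10 in WT, 0.34 in KO insert 1 and −0.26 in KO insert 2. The largest difference between the mean KO gap and the mean WT gap was 0.18, in the shortest quartile with 32 such genes, and the exact permutation p was 0.667 or 1 in the 4 quartiles.

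Among the 6 called genes with a sequence shown, Sv2b and Gad2 had the most sites, 7 and 6, and were called in opposite directions. Over all genes with a site, the authors' DART-seq score in WT had a median of 0.0466 in the 38 genes called higher, 0.109 in the 12 called lower and 0.105 in 5517 not called. The score in neurites was above that in soma for 26 of the 38 and 7 of the 12, against 68.8% of the genes not called.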

How the data were processed

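The authors aligned trimmed read pairs with STAR 2.7.7a to mm10 and counted fragments per gene with featureCounts 2.0.1, and the deposited values are raw whole-number counts, with reads that map to several places included and no strand. The deposited site list gives a C2U fraction averaged over WT libraries, and the authors' DART-seq score sums such averages over the sites of an RNA. Both pool untreated and KCl-treated libraries, also where the score is given for soma or neurites. Column Length, in bases, is the merged exon length.

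Libraries of the same replicate number were taken as 1 insert. Counts of the 8 untreated libraries were scaled by TMM and fitted in edgeR 4.0.16 (R 4.3.3) with 1 term per insert and 1 neurite term per genotype, and tested with the two-sided edgeR F-test (quasi-likelihood), p-values being adjusted after Benjamini and Hochberg over every gene whose mean count reached 10. KO minus WT within a compartment, also for Mettl3, was tested in a fit of group means without insert terms. Ratios per insert used log2 CPM with a prior count of 2. The 37 mitochondrially encoded genes, listed at 0 in every library, were left out. Symbols of 5628 of 5643 genes in the site list matched. Xtail, which the study used, was not used here. DESeq2 1.42.0, limma 3.58.1, other scalings, filters and pairings, trends in length and GC content and each insert left out were alternatives. The removal of GC trends, the crossed pairing and the calls in protein-coding genes alone were chosen after the data were seen. The test was tried on simulated counts. Members, lists and tests were chosen with earlier results of these data known.

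Named genes are Mettl3, the genes followed by the study, the 6 largest rises and falls among called genes whose mean count reached 100 and whose inserts did not overlap, the 3 smallest p in each direction, and per list the called members and the 2 with the most counts. Reads carried no molecular identifiers, so the depth bounds counting error alone. The authors' tables of fold changes and p-values were used for gene biotypes alone. Results for 3 genes are not reported here, and these genes were left out of the lists and named genes.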

Additional observations from a re-analysis of the deposited data

Results flagged for a closer look

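In 8 of the 22 called named genes both WT inserts had the neurite over soma ratio on one side of zero and both KO inserts had it on the other. This held for 159 of all 347 called genes and for 6.08% of all genes tested. The call selects genes by the same ratios, which favors a higher share among called genes. Gm47681 and Tdo2 changed from lower to higher in neurites, with log2 differences of 2.77 and 2.37. Bgn, Hs3st5, Gm45640, Cpeb2, Gad2 and Mobp changed from higher to lower, with differences of −2.67, −1.84, −1.77, −0.78, −0.72 and −3.31. Each difference was tested by the interaction of genotype and compartment in edgeR, with unadjusted p of 0.0302, 0.0207, 0.0139, 0.0273, 0.00545, 0.0492, 0.0484 and 0.0330 in the order given, and none passed at an adjusted p. The ratio of Gad2 in WT insert 2 was 0.00 to 2 decimals, and Mobp had a mean count of 12.6.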

How the results depend on the processing

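Without 1 insert, genes with higher neurite enrichment in Mettl3 KO numbered 19 to 3380 and those with lower enrichment 25 to 2378, with 0 to 4020 genes at an adjusted p. The difference by number of DART-seq sites (8 or more against 0) ranged from −0.15 to 0.00057, and the difference by exon length (longest minus shortest quartile) from −0.78 to −0.22, against −0.061 and −0.52 with all inserts. Of the 22 called named genes, 13 lost the call without WT insert 1 and 21 without WT insert 2. Of the 66 named genes, 22 had another sign with KO insert 1 than with KO insert 2, among them Meg3 (0.41 without KO insert 1, −0.96 without KO insert 2), Snap25 (−0.68, 0.31) and Jun (−0.22, 0.62). The sign reversed with a call for Shank1 (−2.79 without KO insert 1, 1.24 without KO insert 2), Homer1 (−0.91, 0.62), Elavl3 (−1.16, 0.66), Malat1 (2.33, −1.39) and Kdr (1.13, −1.12).

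Calls numbered 571 higher and 115 lower by DESeq2 (83.2% higher, against 53.3%), 668 and 294 with all 16 RNA-seq libraries (69.4%), 1629 and 267 with no filter on low counts (85.9%), and 98 and 72 at a mean count of 100 or more. The difference by exon length was −0.39 with no filter, −0.093 with length and GC trends removed and −0.23 in protein-coding genes. The difference by number of DART-seq sites was 0.0185 with length trends removed and −0.0052 with length and GC trends removed. The causes were not tested. Calls were within 1.5 times of these counts with RLE scaling and limma voom.

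The pairing of soma and neurites within an insert is from the study. The replicate differences in soma and in neurites correlated across genes at −0.150 in WT and 0.0699 in KO. With no replicate block, 165 genes were called higher and 272 lower (37.8% higher). WT and KO inserts share only a number, and a block on it gave 201 and 225 calls, or 222 and 206 with the WT numbers crossed.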
